A study of Mus musculus with 12 samples.

Results

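The Kruppel-like factors described here are 10 genes, Klf2, Klf3, Klf4, Klf5, Klf6, Klf9, Klf10, Klf11, Klf13 and Klf15, taken by symbol from the 54838 genes of the count table. All 10 passed the filter on low counts, as did 15938 genes in all. RNA was sequenced from whole ileum of C57BL/6J mice in 4 groups of 3 mice each. Mice drank water or 25 mM ZnSO4 for 7 days, were then injected with PBS or with 200 µg dexamethasone (Dex, a synthetic ligand of the glucocorticoid receptor, GR), and were sampled 2 h later. The groups are called water + PBS, water + Dex, ZnSO4 + PBS and ZnSO4 + Dex. Libraries held 10760132 to 11827487 counts. The comparisons ask how Dex changed these genes in mice on either drinking water, how ZnSO4 changed them in mice given either injection, and whether the effect of Dex depended on ZnSO4.

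Kruppel-like factors (KLFs) are transcription factors that bind GC-rich and CACCC elements through zinc fingers at the end of the protein. Their other end recruits partners, and the family is often sorted by those partners. Klf2, Klf4, Klf5 and Klf6 are mostly activators that bind acetylases, Klf3 is a repressor that binds CtBP, and Klf9, Klf10, Klf11 and Klf13 bind the corepressor Sin3a. In the intestine Klf4 is known from differentiated villus and goblet cells and Klf5 from the dividing crypt cells, while Klf9 and Klf15 are known in other tissues as genes that glucocorticoids induce.

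Promoters of members that moved with Dex are shown because the genes share a direction or oppose it, and because the factors of this family bind GC boxes and CACCC boxes themselves. RefSeq promoters of GRCm38.p6 (250 bases before to 50 bases after the start of transcription) were matched by symbol for 8 of the 10 members, and those of the 5 matched members called with Dex, Klf15, Klf9, Klf13, Klf3 and Klf4, are printed in the direction of transcription. Capitals mark matches on either strand to the GC box, spelled GGGCGG. They also mark the box known by its letters CACCC, and the E-box, which is spelled CACGTG. In Klf13 and Klf3 a CACCC box overlaps a GC box, and adjoining or overlapping matches run together.
Klf15, chr6:90462326-90462625, plus strand: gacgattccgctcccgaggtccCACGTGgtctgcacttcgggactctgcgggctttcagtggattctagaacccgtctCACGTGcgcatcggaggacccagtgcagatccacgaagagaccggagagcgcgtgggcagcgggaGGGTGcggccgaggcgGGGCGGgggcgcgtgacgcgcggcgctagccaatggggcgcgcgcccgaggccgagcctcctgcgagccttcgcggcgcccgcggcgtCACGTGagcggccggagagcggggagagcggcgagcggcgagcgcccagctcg
Klf9, chr19:23140976-23141275, plus strand: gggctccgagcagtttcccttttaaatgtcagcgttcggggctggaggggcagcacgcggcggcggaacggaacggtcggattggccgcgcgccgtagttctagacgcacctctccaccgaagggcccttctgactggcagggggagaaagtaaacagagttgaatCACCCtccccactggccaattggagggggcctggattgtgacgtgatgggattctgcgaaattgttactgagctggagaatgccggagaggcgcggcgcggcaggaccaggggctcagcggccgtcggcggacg
Klf13, chr7:63938866-63939165, minus strand: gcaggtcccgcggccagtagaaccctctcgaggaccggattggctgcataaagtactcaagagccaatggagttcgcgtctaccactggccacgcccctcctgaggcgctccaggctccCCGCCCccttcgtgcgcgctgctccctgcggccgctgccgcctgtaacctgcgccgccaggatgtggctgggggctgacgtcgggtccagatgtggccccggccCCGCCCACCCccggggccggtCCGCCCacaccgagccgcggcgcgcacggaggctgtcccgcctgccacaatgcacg
Klf3, chr5:64803271-64803570, plus strand: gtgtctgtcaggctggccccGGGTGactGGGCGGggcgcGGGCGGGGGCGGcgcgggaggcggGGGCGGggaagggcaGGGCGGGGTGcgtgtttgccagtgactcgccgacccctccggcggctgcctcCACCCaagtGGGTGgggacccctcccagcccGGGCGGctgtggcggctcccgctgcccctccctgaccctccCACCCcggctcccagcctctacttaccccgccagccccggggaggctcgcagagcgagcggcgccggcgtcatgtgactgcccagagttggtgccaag
Klf4, chr4:55532426-55532725, minus strand: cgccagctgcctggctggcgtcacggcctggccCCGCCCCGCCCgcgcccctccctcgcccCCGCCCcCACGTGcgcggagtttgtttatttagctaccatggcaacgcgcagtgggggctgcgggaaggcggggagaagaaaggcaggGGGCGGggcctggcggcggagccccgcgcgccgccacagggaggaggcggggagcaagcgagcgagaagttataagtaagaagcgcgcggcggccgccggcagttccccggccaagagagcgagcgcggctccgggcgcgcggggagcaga
The Klf15 promoter held 3 E-boxes, with first bases at -228, -172 and -3 from the start, and 0.0883% of 32851 promoters held 3 or more. Klf4, Klf6 and Klf11 held 1 E-box each, at -182, -43 and -214, so that 4 of the 8 windows had one, among them members that fell or were not called, against 7.15% of all promoters. A GC box was found in 7 of the 8 windows, all but that of Klf9, against 35.7% of all promoters. A CACCC box was found in those of Klf15, Klf9, Klf13, Klf3 and Klf2, against 57.5%. Klf3 held 6 GC boxes and 5 CACCC boxes, the highest number of either among the 8. The GR half-site AGAACA (reverse complement TGTTCT) was in none of the 8 windows, against 19.0% of all promoters, and the metal response core TGCGCNC was in those of Klf15, Klf13, Klf2 and Klf11, against 15.4%. The core TGCACNC was in none of the 8, against 12.6%. These are matches of letters in a short window, chosen after the values were known. G and C made up 63% (Klf6) to 77.7% (Klf11) of the bases in the 8 windows. The shares over all promoters were not matched for base content.

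The treatments were visible in genes known to respond to them. Fkbp5, a chaperone gene that GR induces, rose 10.1-fold with Dex in water mice and 10.5-fold in ZnSO4 mice, and Tsc22d3, also a GR target, rose 8.56-fold and 10.1-fold. With ZnSO4, the metallothionein gene Mt1 rose 27.7-fold in PBS mice and 21.4-fold in Dex mice, while the zinc importer gene Slc39a4 was 7.70-fold and 11.2-fold lower. Enterocyte markers were present in every library, but in ZnSO4 + Dex replicate 2 their summed level was 6300 CPM (counts scaled to the library total), against 12156 and 15094 in the other mice of that group. The same library had the highest sums of its group for Paneth markers (21673 CPM, against 18925 and 9090) and smooth muscle markers (2667 CPM, against 2113 and 1836). In that library Klf3, Klf4, Klf5, Klf6 and Klf10 were lowest of their group and the other 5 members highest. In whole tissue, fewer cells of a type and less RNA per cell cannot be told apart.

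Levels of different members were compared per length, as TMM-scaled CPM per kilobase of exon. In water + PBS mice Klf4 was highest at 97.3 ± 13.9 (SD, n = 3), followed by Klf5 at 70.9 ± 3.97 and Klf6 at 61.6 ± 5.23. Klf3 stood at 23.4 ± 0.935. Klf2, Klf9, Klf10 and Klf13 lay between 9.89 and 11.3, Klf11 was at 2.23 ± 0.854 and Klf15 was lowest at 1.28 ± 0.258. Klf4 stood above Klf5, Klf6 above Klf3, Klf3 above Klf2 and Klf13 above Klf11 with no overlap between mice, whereas the other neighbours in this order overlapped.

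**Figure D1:**
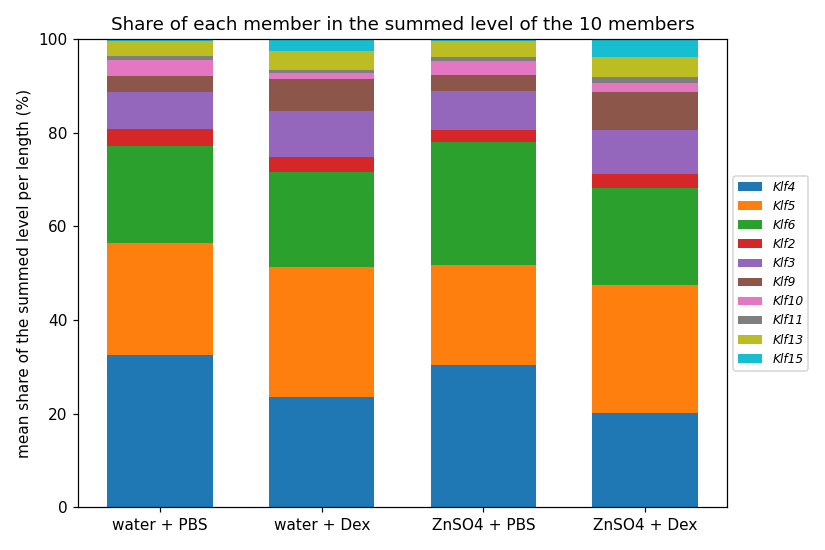
Mean share of each member in the summed level per length of the 10 members (vertical axis, %) in each group of 3 mice (horizontal axis). Klf4 held 32.5% in water + PBS mice and 20.2% in ZnSO4 + Dex mice, while Klf15 went from 0.433% to 3.85%.

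The summed level per length of the 10 members was 298 ± 15.5 in water + PBS, 326 ± 8.26 in water + Dex, 298 ± 14.0 in ZnSO4 + PBS and 291 ± 31.6 in ZnSO4 + Dex (SD, n = 3). In water mice the sum was higher with Dex, at 316, 328 and 332 against 282, 313 and 300 with PBS, without overlap, while in ZnSO4 mice it was 308, 255 and 310 with Dex and 313, 285 and 298 with PBS. The make-up of the sum also differed. Klf4 held 32.5% ± 2.98 of it in water + PBS and 23.6% ± 1.24 in water + Dex, and Klf5 held 23.8% ± 2.33 and 27.8% ± 0.587. Klf4 was the highest member in both PBS groups and Klf5 in both Dex groups.

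**Figure D2:**
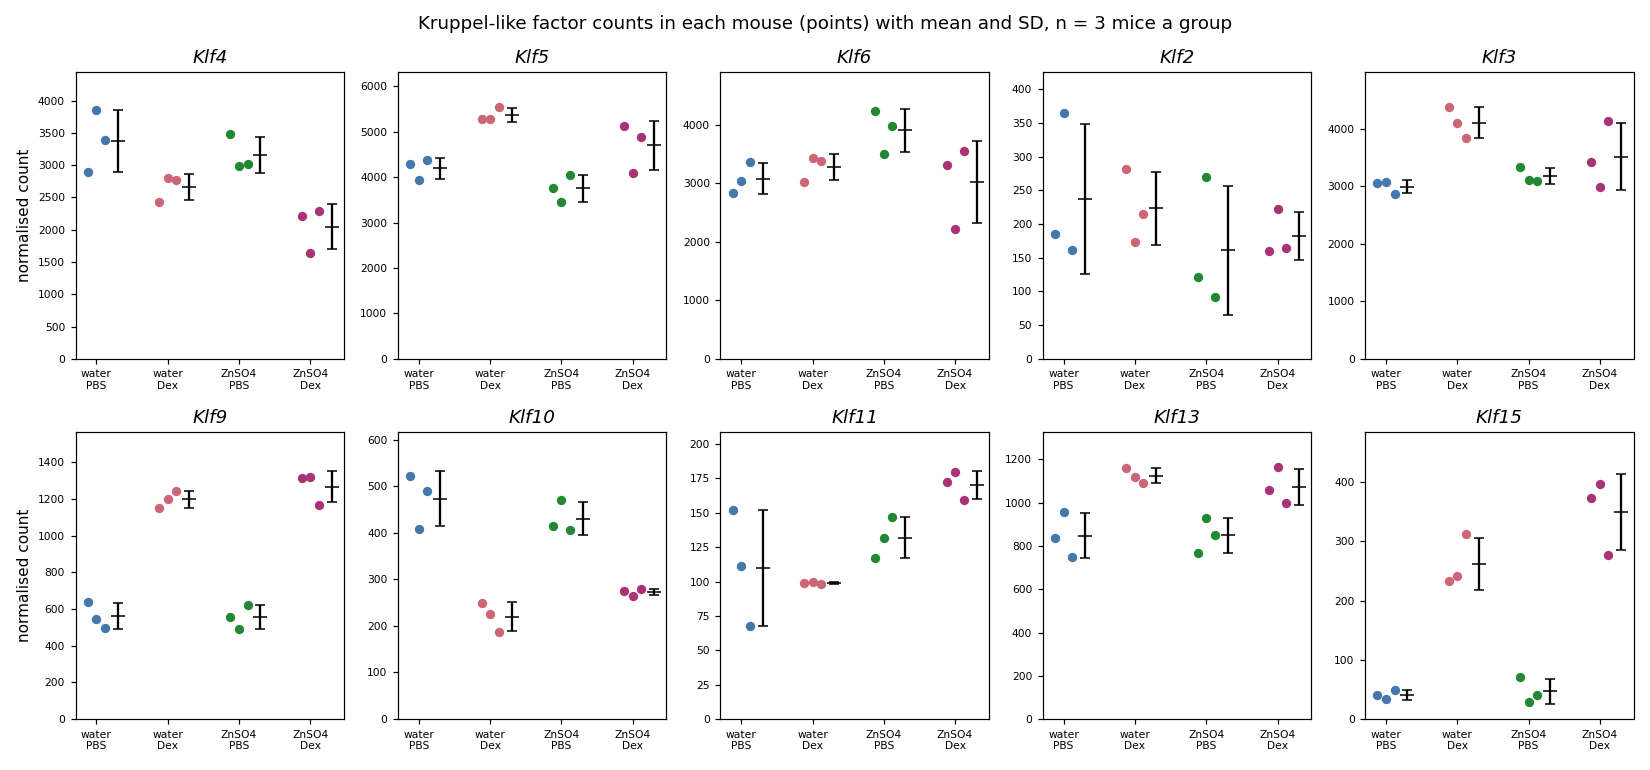
Normalised count (vertical axis, from 0) of each member in each mouse (points) of the 4 groups, with mean and SD beside them, n = 3. Every Dex mouse lies above every PBS mouse for Klf9, Klf13 and Klf15 and below every PBS mouse for Klf4 and Klf10. How many of all genes tested separate in this way over both drinking waters was not counted.

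Dex in water mice raised Klf15, Klf9, Klf3, Klf13 and Klf5 and lowered Klf10 (edgeR quasi-likelihood test, Benjamini-Hochberg adjusted p under 0.05 over all genes tested). The largest change was the 6.40-fold rise of Klf15. Among all genes tested 5.41% were called higher and 4.51% lower, and the median log2 fold change was -0.01, against 0.22 over the 10 members. In ZnSO4 mice Dex raised Klf15, Klf9, Klf13 and Klf5 and lowered Klf10 and Klf4, where 6.65% of genes were called higher and 7.08% lower. Values of the Dex and PBS mice did not overlap for 7 of the 10 members in water mice and for 7 in ZnSO4 mice, against 29.7% and 29.1% of all genes tested. The members were chosen with earlier results of these data known, so the values over all genes are given beside them as description only. With the study's added cut-off of 0.8 on the log2 fold change, 3 members were called in water mice (Klf15, Klf9 and Klf10) and 2 in ZnSO4 mice (Klf15 and Klf9), against 4.42% and 5.81% of genes.

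**Figure D3:**
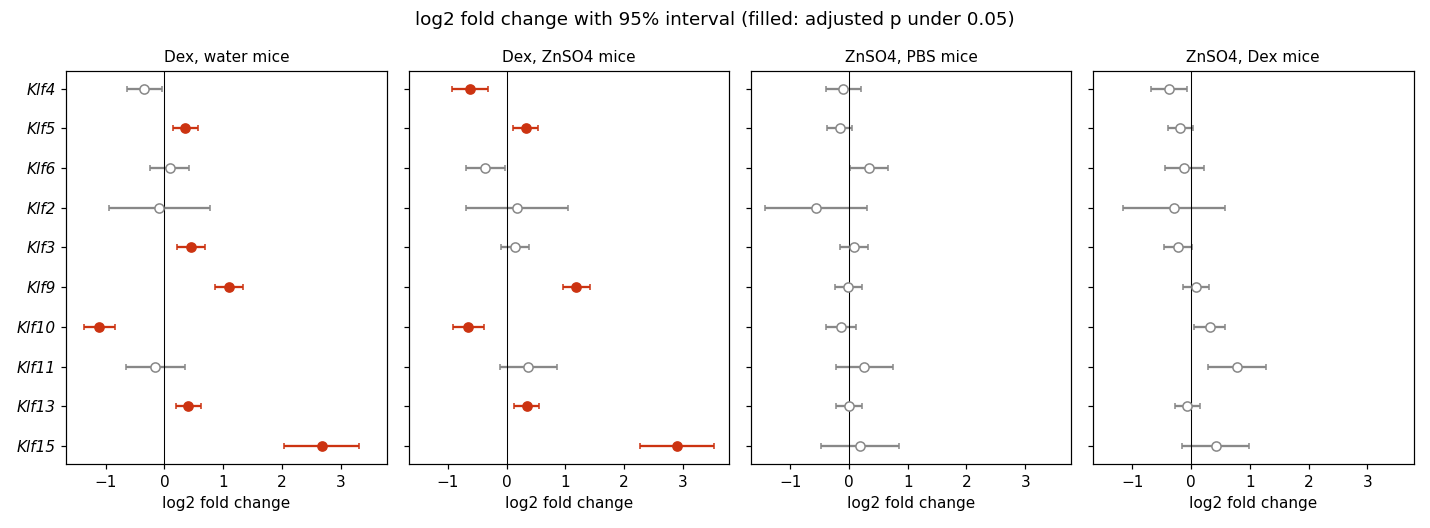
log2 fold change of each member (horizontal axis) with its 95% interval for Dex in water mice, Dex in ZnSO4 mice, ZnSO4 in PBS mice and ZnSO4 in Dex mice. Filled red points have an adjusted p under 0.05, and no member is filled in the ZnSO4 panels.

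Klf15 (ENSMUSG00000030087, chr6:90462576-90475238 of GRCm38, plus strand) is known as a regulator of amino acid and glucose metabolism in liver and muscle. It had normalised counts of 39.9, 33.1 and 49.4 in water + PBS mice and of 233, 241 and 312 in water + Dex mice. In ZnSO4 mice they were 70.7, 28.4 and 40.8 with PBS and 373, 398 and 277 with Dex. The lowest Dex mouse was above the highest PBS mouse. The log2 fold change was 2.68 ± 0.29 (SE, adjusted p = 0.000131) in water mice and 2.90 ± 0.29 (adjusted p = 5.97e-05) in ZnSO4 mice. Klf15 thus moved from the lowest level per length of the members to 8.25 ± 1.38 in water + Dex and 11.0 ± 2.02 in ZnSO4 + Dex mice.

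Klf9 (ENSMUSG00000033863, chr19:23141226-23168134, plus strand), a Sin3a-binding factor known from hormone responses, had counts of 637, 545 and 498 in water + PBS mice and 1148, 1202 and 1243 in water + Dex mice. In ZnSO4 mice the counts were 554, 492 and 623 with PBS and 1313, 1321 and 1168 with Dex. All 6 Dex mice were above all 6 PBS mice. The log2 fold change was 1.10 ± 0.11 (SE, adjusted p = 5.59e-05) in water mice and 1.19 ± 0.11 (adjusted p = 2.84e-05) in ZnSO4 mice.

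Klf10 (ENSMUSG00000037465, chr15:38291463-38300706, minus strand), an early response gene of TGF-beta whose protein also binds Sin3a, moved the other way. Its counts were 522, 407 and 490 in water + PBS mice and 249, 225 and 186 in water + Dex mice, a 2.15-fold lower fitted level (log2 fold change -1.11 ± 0.12, SE, adjusted p = 0.000152). In ZnSO4 mice they were 414, 471 and 406 with PBS and 275, 265 and 279 with Dex, 1.58-fold lower (log2 fold change -0.66 ± 0.12, adjusted p = 0.0036). No Dex mouse reached the lowest PBS mouse.

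Klf13, another Sin3a-binding factor known from lymphocytes, rose less. Counts were 836, 956 and 751 in water + PBS and 1161, 1121 and 1093 in water + Dex mice, and 767, 929 and 849 in ZnSO4 + PBS and 1058, 1163 and 1001 in ZnSO4 + Dex mice. All Dex mice were above all PBS mice. The log2 fold changes were 0.41 ± 0.10 (SE, adjusted p = 0.0229) and 0.34 ± 0.10 (adjusted p = 0.0428). In water mice the call was lost without water + PBS replicate 1 or 3 or any 1 water + Dex mouse (adjusted p 0.0606 to 0.0882). In ZnSO4 mice it was lost in 8 of the 12 fits that left out 1 library, those without water + PBS replicate 1, any water + Dex mouse, ZnSO4 + PBS replicate 1 or 3, or ZnSO4 + Dex replicate 1 or 2 (adjusted p 0.0609 to 0.162).

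Klf11, the remaining member that binds Sin3a, was not called with Dex. Its counts were 152, 111 and 67.5 in water + PBS, 99.2, 99.4 and 98.3 in water + Dex, 117, 132 and 147 in ZnSO4 + PBS and 172, 180 and 159 in ZnSO4 + Dex mice. With ZnSO4 in Dex mice the groups did not overlap, and the log2 fold change of 0.78 ± 0.22 (SE) had an adjusted p of 0.0782. Without water + PBS replicate 1 or 3, which are not part of that comparison but share its estimate of the spread, the adjusted p was 0.0291 or 0.0131. DESeq2 gave 0.0241, and a fit of the compared groups alone 0.013. With replicate number as a block the adjusted p was 0.108. With the level of B cell markers as a covariate it was 0.0831, and with that of smooth muscle markers, chosen after the data were seen, 0.238. Of 12 fits that left out 1 library 2 called Klf11 (adjusted p 0.0131 to 0.199 over the 12), as did 2 of 9 other settings.

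Among the activators, Klf5 rose and Klf4 fell in ZnSO4 mice. Klf5 had counts of 4282, 3927 and 4371 in water + PBS and 5279, 5269 and 5536 in water + Dex mice, and 3758, 3448 and 4052 in ZnSO4 + PBS and 5122, 4099 and 4883 in ZnSO4 + Dex mice. Within either drinking water every Dex mouse was above every PBS mouse. Its log2 fold changes were 0.35 ± 0.10 (SE, adjusted p = 0.0398) and 0.33 ± 0.10 (adjusted p = 0.0465). The call in water mice was lost without any 1 of the 6 water mice or ZnSO4 + PBS replicate 1 (adjusted p 0.0622 to 0.162), and that in ZnSO4 mice in 11 of 12 such fits, all but the fit without ZnSO4 + Dex replicate 2 (adjusted p 0.0508 to 0.167). With the level of smooth muscle markers as a covariate, an alternative chosen after the data were seen, Klf5 had log2 fold changes of 0.34 in water mice (adjusted p = 0.0578) and 0.31 in ZnSO4 mice (adjusted p = 0.0717). Klf13 in ZnSO4 mice had 0.34 (adjusted p = 0.0622), so these calls were lost while the folds stayed close to those without the covariate. The summed level of the 6 smooth muscle markers was 1280 to 1672 CPM in water + PBS, 1607 to 1710 in water + Dex, 1504 to 2709 in ZnSO4 + PBS and 1836 to 2667 in ZnSO4 + Dex mice, none of the 6 was at 0 in a group, and none was called with Dex. With the B cell markers as a covariate Klf5 had log2 fold changes of 0.32 (adjusted p = 0.0804) and 0.29 (adjusted p = 0.0936).

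Klf4 had counts of 2890, 3854 and 3386 in water + PBS and 2434, 2794 and 2764 in water + Dex mice. The groups did not overlap, but the log2 fold change of -0.34 ± 0.14 (SE) had an adjusted p of 0.159. In ZnSO4 mice counts were 3477, 2984 and 3021 with PBS and 2210, 1645 and 2287 with Dex. There Klf4 fell 1.54-fold (log2 fold change -0.63 ± 0.14, adjusted p = 0.0102), and without ZnSO4 + Dex replicate 2, the lowest mouse, the log2 fold change was -0.49 (adjusted p = 0.0227). The interaction for Klf4 was -0.29 ± 0.19 (adjusted p = 0.959), so a difference between the drinking waters was not shown.

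Klf6, known as an injury-induced activator, was not called. Counts were 2840, 3042 and 3358 in water + PBS, 3016, 3432 and 3387 in water + Dex, 4232, 3499 and 3976 in ZnSO4 + PBS and 3305, 2224 and 3546 in ZnSO4 + Dex mice. ZnSO4 + PBS mice were all above water + PBS mice (log2 fold change 0.34 ± 0.15, SE, adjusted p = 0.237). The low value of 2224 was in the library with few enterocyte transcripts. Without it the log2 fold change with Dex in ZnSO4 mice was -0.19 in place of -0.37, and neither was called.

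Klf3, the CtBP-binding repressor, had counts of 3052, 3078 and 2859 in water + PBS and 4379, 4100 and 3841 in water + Dex mice, with no overlap. It rose by a log2 fold change of 0.45 ± 0.11 (SE, adjusted p = 0.0195), a call lost without water + PBS replicate 1 or 3 or water + Dex replicate 1 or 2 (adjusted p 0.0601 to 0.0814). In ZnSO4 mice counts were 3343, 3113 and 3099 with PBS and 3430, 2989 and 4132 with Dex, which overlapped (log2 fold change 0.14 ± 0.11, adjusted p = 0.451). The interaction was -0.31 ± 0.15 (adjusted p = 0.952). Of the exon bases of Klf3, 3.59% overlap the gene Gm20033 on the other strand, and the strand setting of the counting is not given in the sources used here.

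Klf2, known from endothelium and from circulating lymphocytes, had the highest median coefficient of variation between mice of a group among the 10 members, 35.6% (19.3% to 59.3% over the 4 groups). Counts were 185, 365 and 162 in water + PBS, 281, 174 and 215 in water + Dex, 122, 270 and 91.7 in ZnSO4 + PBS and 160, 223 and 164 in ZnSO4 + Dex mice, and all groups overlapped. No comparison called it, and the interval of the Dex effect in water mice reached from -0.95 to 0.77 on the log2 scale. The mouse with the highest Klf2 was also the mouse with the highest summed B cell markers in water + PBS (533 CPM), water + Dex (188 CPM) and ZnSO4 + PBS (399 CPM), but not in ZnSO4 + Dex. The 6 B cell markers summed to 27.6 to 533 CPM in water + PBS, 15.4 to 188 in water + Dex, 11.5 to 399 in ZnSO4 + PBS and 12.9 to 59.0 in ZnSO4 + Dex mice, none was at 0 in a group, and none was called in any comparison. Their median log2 fold change with Dex was nonetheless -1.62 in water mice and -2.69 in ZnSO4 mice. With the summed B cell level as a covariate the log2 fold change of Klf2 with Dex was 0.26 in water mice (adjusted p = 0.689) and 0.64 in ZnSO4 mice (adjusted p = 0.244). Of the 6 endothelial markers, Cldn5 and Kdr fell with Dex in both drinking waters, while Emcn was called higher in the averaged comparison. Cdh5 was called higher with ZnSO4 averaged over both injections. The 6 summed to 113 to 144 CPM in water + PBS and 93.6 to 104 in water + Dex mice. In ZnSO4 + PBS mice they summed to 137 to 140 CPM and in ZnSO4 + Dex mice to 107 to 122. Of the 6 T cell markers none was called with Dex within either drinking water. Cd3g fell with Dex in the averaged comparison (log2 fold change -0.67, adjusted p = 0.0144). Cd8a fell with ZnSO4 in PBS mice and Cd8a, Cd3d and Cd3e in Dex mice. Averaged over both injections Cd8a, Cd3e, Cd3d and Cd3g were lower with ZnSO4. Among all genes tested 9.93% and 13.7% were called with Dex in water and ZnSO4 mice, and 4.66% and 4.37% with ZnSO4 in PBS and Dex mice. In the averaged comparisons 21.5% were called with Dex and 12.8% with ZnSO4. The part of these cell types in the Klf2 values was not tested.

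**Figure D4:**
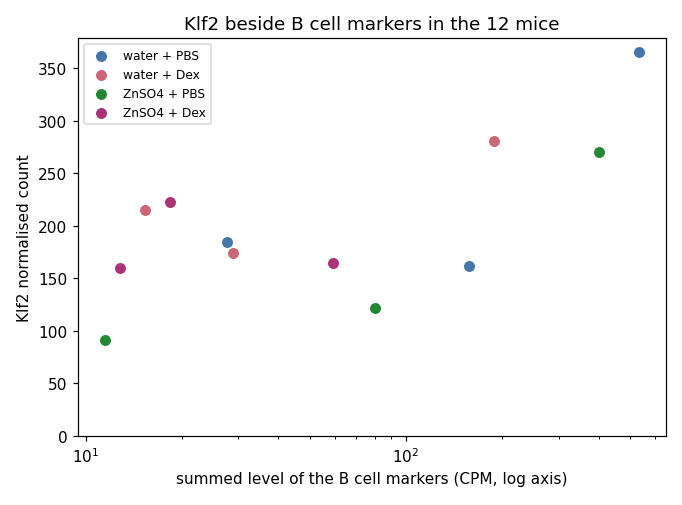
Klf2 normalised count (vertical axis) against the summed level of 6 B cell markers (horizontal log axis, CPM) in the 12 mice, 1 point a mouse, coloured by group. The mouse with 365 Klf2 counts has 533 CPM of B cell markers, and mice under 100 CPM span 91.7 to 223 counts.

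Averaged over both drinking waters, Dex raised Klf15, Klf9, Klf13, Klf5 and Klf3 and lowered Klf10 and Klf4, where 10.4% of genes were called higher and 11.2% lower. These 7 calls held in all 12 fits that left out 1 library. An exact two-sided permutation test of each member within drinking water gave p = 0.005, the smallest its 400 rearrangements can give, for Klf4, Klf5, Klf9, Klf10, Klf13 and Klf15, and p = 0.03 for Klf3. For ZnSO4, exact permutation gave p = 0.02 for Klf5, 0.025 for Klf11 and 0.05 for Klf4, among 20 such tests that were not corrected.

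ZnSO4 called no member in PBS mice, where 4.66% of genes were called, and none in Dex mice, where 4.37% were. At an unadjusted p under 0.05 there was 1 member in PBS mice (Klf6) and 3 in Dex mice (Klf4, Klf10 and Klf11), against 19.8% and 19.1% of all genes tested. DESeq2 called Klf11 in Dex mice and no member in PBS mice. Values did not overlap for 2 members in PBS mice and 4 in Dex mice, against 25.3% and 25.9% of genes. Averaged over both injections 12.8% of genes and no member were called, with Klf11 nearest (log2 fold change 0.52 ± 0.16, SE, adjusted p = 0.052). The intervals of the ZnSO4 effect in PBS mice were narrow for Klf13 (-0.22 to 0.22) and Klf9 (-0.24 to 0.22) and wide for Klf2 (-1.42 to 0.31).

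No member was called for an interaction of ZnSO4 and Dex, and neither was any other gene tested (0.0% called by edgeR, 794 genes at an unadjusted p under 0.05, 6 genes called by DESeq2). The member with the lowest unadjusted p was Klf10, at 0.0229, with an interaction of 0.45 ± 0.17 (SE, adjusted p = 0.952). The interval for Klf15 reached from -0.65 to 1.10 and that for Klf9 from -0.24 to 0.42.

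Of 16 other Kruppel-like and Sp genes 9 passed the filter. With Dex 0 of the 9 were called higher and 2 lower in water mice, against 5.41% and 4.51% of all genes. In ZnSO4 mice 0 were called higher and 2 lower, against 6.65% and 7.08%. Their median log2 fold change was -0.095 in water mice and -0.084 in ZnSO4 mice. Averaged over drinking waters Klf12 was called higher and Sp5, Klf16 and Sp3 lower. Klf16, a further Sin3a-binding factor, fell with Dex in water mice (1.58-fold, adjusted p = 0.00459) and in ZnSO4 mice (1.68-fold, adjusted p = 0.00144). Sp5, a target of Wnt signalling in crypts, fell 1.81-fold (adjusted p = 0.0332) and 1.92-fold (adjusted p = 0.0145). Klf12, a relative of Klf3 that binds CtBP, rose 1.78-fold with ZnSO4 in Dex mice (adjusted p = 0.0365). It alone of the 9 was called there, against 4.37% of all genes.

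Of 24 partner and regulator genes of the family, 3 were called with Dex in water mice and 3 in ZnSO4 mice (12.5% each), against 9.93% and 13.7% of all genes. Averaged over drinking waters 7 were called (29.2%), against 21.5%. Of 12 cofactor genes, Sin3a fell with Dex in water mice (log2 fold change -0.41, adjusted p = 0.0435), Ncor1 fell in ZnSO4 mice (-0.29, adjusted p = 0.0428) and Hdac1 rose with ZnSO4 in Dex mice (0.31, adjusted p = 0.0306). Of 4 ubiquitin ligase genes for KLF proteins, Smurf1 fell with Dex in both (-0.39 and -0.40, adjusted p = 0.022 and 0.0154). Of 8 upstream genes, Nr3c1, which encodes GR itself, fell 1.94-fold in water mice and 2.49-fold in ZnSO4 mice and was the only one called in those comparisons. In the averaged comparison Foxo1 rose (log2 fold change 0.85, adjusted p = 0.0096) and Mapk7 (-0.31, adjusted p = 0.0242) and Mef2d (-0.24, adjusted p = 0.0229) fell as well.

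Of the genes tied to Klf15, 1 of 7 tested was called with Dex in water mice and 2 of 7 in ZnSO4 mice. Among all genes tested 9.93% and 13.7% were called in these comparisons. Averaged over drinking waters 3 of the 7 were called (Prodh, Tat and Gpt), against 21.5% of all genes. Of 8 listed and 7 tested, Prodh, the first enzyme of proline breakdown, rose with Dex 2.44-fold in water mice and 2.72-fold in ZnSO4 mice, and Tat, which starts tyrosine breakdown, rose 3.89-fold in ZnSO4 mice. Tat was also 10.1-fold lower with ZnSO4 in PBS mice and 3.94-fold lower in Dex mice. The median log2 fold change with Dex of the 7 was 0.37 in water mice, 0.19 in ZnSO4 mice and 0.13 on average, against -0.01, 0.0091 and -0.0014 over all genes.

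Of 11 epithelial growth and differentiation genes tied to Klf4 and Klf5, 1 was called higher and 3 lower with Dex in water mice. In ZnSO4 mice 1 was called higher and 2 lower. Among all genes tested 5.41% were called higher and 4.51% lower with Dex in water mice, and 6.65% and 7.08% in ZnSO4 mice. Averaged over drinking waters 1 of the 11 was called higher and 5 lower, against 10.4% and 11.2%. Dex raised Cdkn1a, an inhibitor of the cell cycle, 3.19-fold in water mice and 3.32-fold in ZnSO4 mice. It lowered Pdgfa 1.83-fold and 2.02-fold and Myc 1.53-fold and 1.45-fold. Ccnd1, cyclin D1, fell 1.68-fold with Dex in water mice and 2.20-fold with ZnSO4 in PBS mice, and 1.42-fold with ZnSO4 in Dex mice. Of 6 vascular and lymphocyte genes tied to Klf2 and Klf4, Edn1 (endothelin) rose 4.84-fold and 3.25-fold with Dex. It rose 2.56-fold with ZnSO4 in PBS mice, where 4.66% of all genes were called. No other of the 6 was called in those comparisons. Averaged over drinking waters Dex called Edn1 higher and Thbd lower, against 10.4% and 11.2% of all genes. Averaged over injections ZnSO4 called Edn1, Itgb7 and Thbd, 2 higher and 1 lower, against 12.8% of all genes. Of 15 TGF-beta genes tied to Klf10 and Klf11, Smad4, the shared Smad, rose 2.03-fold and 1.92-fold with Dex and the repressor gene Ski fell 1.56-fold and 1.55-fold. No other of the 15 was called with Dex within either drinking water. In the averaged comparison 2 of them were called higher and 4 lower, against 10.4% and 11.2% of all genes. They were Smad4, Tgfb1, Tgfb2, Ski, Tgfb3 and Tgfbr1. Smad4 was 1.32-fold lower with ZnSO4 in PBS mice and 1.40-fold lower in Dex mice.

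The genes whose log2 fold changes lay nearest to those of Klf15 over Dex in water mice, Dex in ZnSO4 mice and ZnSO4 in PBS mice were Tmem37 (Euclidean distance 0.18), Cyp27a1 (0.23) and Fam107a (0.26), among 14958 genes compared over the 12 libraries. For Klf10 they were Id1 (0.069), Slc14a1 (0.13) and Armc2 (0.14). Id1, an inhibitor of differentiation factors, had log2 fold changes of -1.13 and -0.68 with Dex, beside -1.11 and -0.66 for Klf10.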

How the data were processed

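Stranded single-end RNA-seq libraries were mapped by the authors to mm10 with HISAT2 2.0.4 and counted per gene with featureCounts, leaving out reads with several positions. The annotation release and strand setting are not given in the sources used here. The deposited values are raw counts per Ensembl gene, not normalised. Symbols, positions and exon lengths came from GENCODE M21 (GRCm38, the assembly of mm10), and column names were matched to groups by their letters.

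Genes were filtered with filterByExpr (minimum count 10), scaled by TMM and fitted in 1 edgeR 4.0.16 quasi-likelihood model with 4 group means over 12 libraries (R 4.3.3). Adjusted p-values are Benjamini-Hochberg over 15938 genes, called under 0.05. Normalised counts are counts scaled to the mean effective library size. The study used DESeq2, run here (1.42.0) as an alternative. Intervals are 95%. The script was tested on simulated data. Permutation tests used log2 CPM with a prior count of 2.

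Named were all 10 members, at most 4 called genes with the largest changes of each list, the check genes, and the 3 genes nearest to the member with the largest rise and fall (mean CPM of at least 1). Members and lists were chosen with earlier results of these data known. Replicate numbers were not taken to pair the mice. Other settings tried were DESeq2, RLE and upper-quartile scaling, no and a stricter filter (10 counts in every library), a replicate block, only the groups compared, the cut-off of 0.8, marker covariates and leaving out each library. The smooth muscle covariate was chosen after seeing the data.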

Additional observations from a re-analysis of the deposited data

How the results depend on the processing

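Klf9, Klf10 and Klf15 kept their calls with Dex, and Klf4 its call in ZnSO4 mice, under every alternative fit at the adjusted p threshold. The calls of Klf5, Klf13 and Klf3 did not hold throughout. With the added cut-off of 0.8, 2 members rose with Dex in water mice in place of 5, 2 rose and 0 fell in ZnSO4 mice in place of 4 and 2, and 2 rose and 1 fell on average in place of 5 and 2. In ZnSO4 mice 2 members also rose with no filter on low counts, with only the groups compared, and with the smooth muscle covariate, which was chosen after seeing the data. In each of these 3 fits the lost calls were Klf5 and Klf13. In water mice the call of Klf5 was also lost with the smooth muscle covariate (adjusted p = 0.0578), the B cell covariate (0.0804) and no filter (0.0881), and in ZnSO4 mice with RLE factors (0.0618) and the B cell covariate (0.0936). ZnSO4 raised 1 member, Klf11, in Dex mice with DESeq2 and with only the groups compared. On average over injections it raised 1, Klf11, with DESeq2, upper-quartile factors, no filter, and at least 10 counts in every library. In the other settings Klf11 was not called. With the smooth muscle covariate its adjusted p was 0.238 in Dex mice and 0.245 on average. When 1 library was left out, the members raised numbered 2 to 5 with Dex in water mice, 2 to 3 with Dex in ZnSO4 mice, 0 to 1 with ZnSO4 in Dex mice and 0 to 1 with ZnSO4 on average.

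In all, 47 log2 fold changes changed sign, none called in either fit. For Klf2 with Dex in water mice they were 0.048 with the replicate block, 0.26 with the B cell covariate and 0.091 with the smooth muscle covariate. For Klf9 with ZnSO4 in PBS mice they were 0.00080 with DESeq2, 0.00073 with RLE factors, 0.018 with upper-quartile factors, 0.0019 with no filter and 0.0033 with only the groups compared. The smooth muscle covariate gave 0.012 for Klf4 with ZnSO4 in PBS mice, 0.16 for Klf2 and -0.020 for Klf9 with ZnSO4 in Dex mice, and 0.020 for Klf3 and -0.061 for Klf9 with ZnSO4 on average. For ZnSO4 on average the B cell covariate gave -0.011 for Klf9 and upper-quartile factors 0.0049 for Klf13. With 1 library left out, Dex in water mice ranged from -0.30 to 0.37 for Klf2 and from -0.41 to 0.15 for Klf11, and Dex in ZnSO4 mice from -0.10 to 0.77 for Klf2. ZnSO4 in PBS mice ranged from -0.18 to 0.010 for Klf4, -0.097 to 0.11 for Klf9, -0.078 to 0.097 for Klf13 and -0.24 to 0.45 for Klf15, and ZnSO4 in Dex mice from -0.25 to 0.063 for Klf6. The interaction ranged from -0.19 to 0.86 for Klf2, -0.097 to 0.060 for Klf5, -0.028 to 0.18 for Klf9, -0.17 to 0.0097 for Klf13 and -0.034 to 0.65 for Klf15. Averaged Dex ranged from -0.095 to 0.34 for Klf2 and -0.022 to 0.25 for Klf11, and averaged ZnSO4 from -0.0082 to 0.098 for Klf9 and -0.073 to 0.014 for Klf13. The cause of these changes was not tested.

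Residuals of mice with the same replicate number had a median correlation of -0.056 over 18 pairs (-0.36 to 0.46), against 0.023 over 36 other pairs, so the numbers were not taken to pair mice. With the replicate block, Dex raised 5 members and lowered 1 in water mice and raised 4 and lowered 2 in ZnSO4 mice, as without it.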
